A study of Mus musculus with 12 samples.

Results

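Fggy (gene identifier 75578) is 1 of the 18221 genes to which the deposited spleen tables could be summed, and it was chosen by its own measured values. In an earlier re-analysis of these data it was the single gene past an FDR of 0.001 and an absolute log2 ratio of 1. This was so once when the B-sa mice were compared with Con-sa and once when B+A10-FMT mice were compared with B-sa. The study itself applied these cut-offs with DEGseq, another method, and reported many genes lowered by busulfan. Because Fggy was chosen in this way, the differences that involve the B-sa mice are given below as a description, without a p-value. The gene is listed in 14 of the 60654 transcript rows of each table, 2 of them curated RefSeq transcripts (prefix NM) and 12 predicted ones (prefix XM).

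RNA was sequenced from the spleen of 12 male ICR mice, an outbred stock, with 3 mice to each of 4 groups. All mice entered the experiment at 3 weeks of age and were killed at 8 weeks. The Con-sa mice received saline and no busulfan, and the B-sa mice received a single injection of busulfan at 40 mg/kg, followed by saline. The B+Con-FMT and B+A10-FMT mice received the same busulfan injection and then, for 2 weeks, gut contents of donor mice. The donors had received water for B+Con-FMT, and for B+A10-FMT they had been given alginate oligosaccharide (AOS) at 10 mg/kg. The contents of the donors of a group were pooled, so that the mice of an FMT group share 1 inoculum, and busulfan is shared by all groups but Con-sa. Busulfan is an alkylating drug that damages blood-forming and germ cells.

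Fggy encodes a kinase of the FGGY family of carbohydrate kinases, enzymes that transfer a phosphate from ATP to a sugar or polyol. The FGGY protein phosphorylates the ketopentose D-ribulose, and the product can enter the pentose phosphate pathway, which supplies NADPH and ribose phosphate. Its relatives are xylulokinase (Xylb), glycerol kinase (Gk), the related Gk5, and sedoheptulokinase (Shpk).

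The gene spans chr4:95557480-95926939 on the plus strand of GRCm38.p6, a length of 369460 bases. The 2 curated transcripts start 21914 bases apart and share 9 exons. NM_001113412.1 (chr4:95557507-95926939) has 16 exons and 1891 exonic bases, and NM_029347.2 (chr4:95579421-95821569) has 11 exons and 1910 exonic bases and ends in an exon of 688 bases of its own. Because the rows of the deposited tables follow these transcripts, the start regions of both are shown, from 250 bases before to 50 after the start (RefSeq, GRCm38.p6, plus strand). The first lies at chr4:95557257-95557556 and the second at chr4:95579171-95579470. Capitals mark matches on either strand to the motif TATAAA of the TATA box, the motif CCAAT of the CCAAT box and the motif GGGCGG of the GC box, and the matches found do not overlap each other.
NM_001113412.1 start region: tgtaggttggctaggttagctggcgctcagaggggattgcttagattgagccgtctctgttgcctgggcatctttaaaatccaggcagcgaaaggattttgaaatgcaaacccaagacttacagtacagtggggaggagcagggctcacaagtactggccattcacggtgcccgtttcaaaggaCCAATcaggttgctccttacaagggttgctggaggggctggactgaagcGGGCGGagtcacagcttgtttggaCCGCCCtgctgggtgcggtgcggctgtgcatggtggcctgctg
NM_029347.2 start region: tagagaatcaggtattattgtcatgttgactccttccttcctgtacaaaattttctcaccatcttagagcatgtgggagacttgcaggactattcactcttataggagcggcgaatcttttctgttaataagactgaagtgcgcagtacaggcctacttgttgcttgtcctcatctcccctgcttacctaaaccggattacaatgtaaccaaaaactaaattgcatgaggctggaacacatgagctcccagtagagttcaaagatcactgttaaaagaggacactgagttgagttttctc
The start region of NM_001113412.1 held 1 match to CCAAT and 1 match to GGGCGG on each strand, and 0 to TATAAA. That of NM_029347.2 held 0 matches to any of these motifs. Of 32851 mouse promoters of the same length, 37.4% held CCAAT, 35.7% held GGGCGG and 13.6% held TATAAA on either strand. GC content was 56.0% in the first and 42.0% in the second region, against a median of 52.7% over all promoters, and they held 10 and 4 CG pairs. These matches are a description of the letters in the windows, and binding was not measured.

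**Figure D1:**
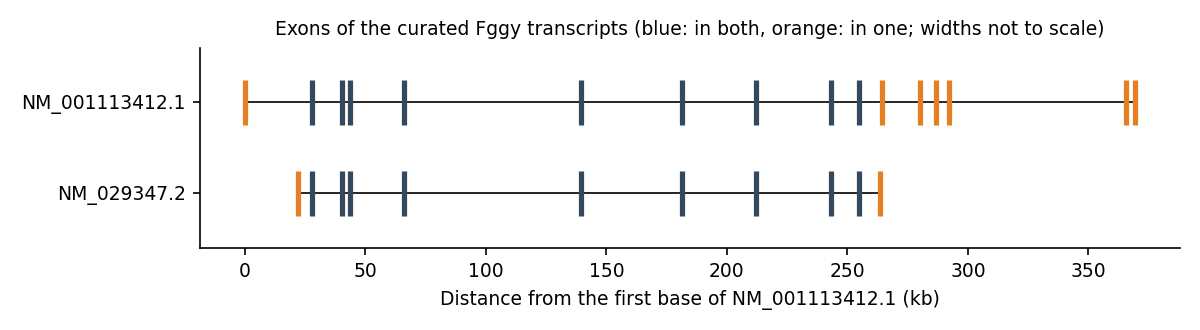
Exons of NM_001113412.1 (upper, 16 exons) and NM_029347.2 (lower, 11 exons) along the distance from the first base of NM_001113412.1 in kilobases. Blue exons are in both transcripts (9), and orange exons are in 1 of them.

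The tables give RPKM, reads scaled to transcript length and to the mapped reads of the mouse, and the RPKM of the 14 rows were summed for each mouse. In Con-sa, Fggy was at 4.03, 4.39 and 3.56 RPKM (3.99 ± 0.416, SD, n = 3). In B-sa it was at 1.02, 0.71 and 0.58 RPKM (0.77 ± 0.226, SD, n = 3). Every B-sa mouse lay below every mouse of the other groups, the nearest of which was at 2.63 RPKM. In B+Con-FMT the values were 2.63, 3.36 and 2.81 RPKM (2.93 ± 0.38, SD, n = 3). In B+A10-FMT they were 4.05, 3.19 and 4.14 RPKM (3.79 ± 0.524, SD, n = 3). The B+Con-FMT mice all lay under the lowest Con-sa mouse, whereas the B+A10-FMT mice overlapped both Con-sa and B+Con-FMT.

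**Figure D2:**
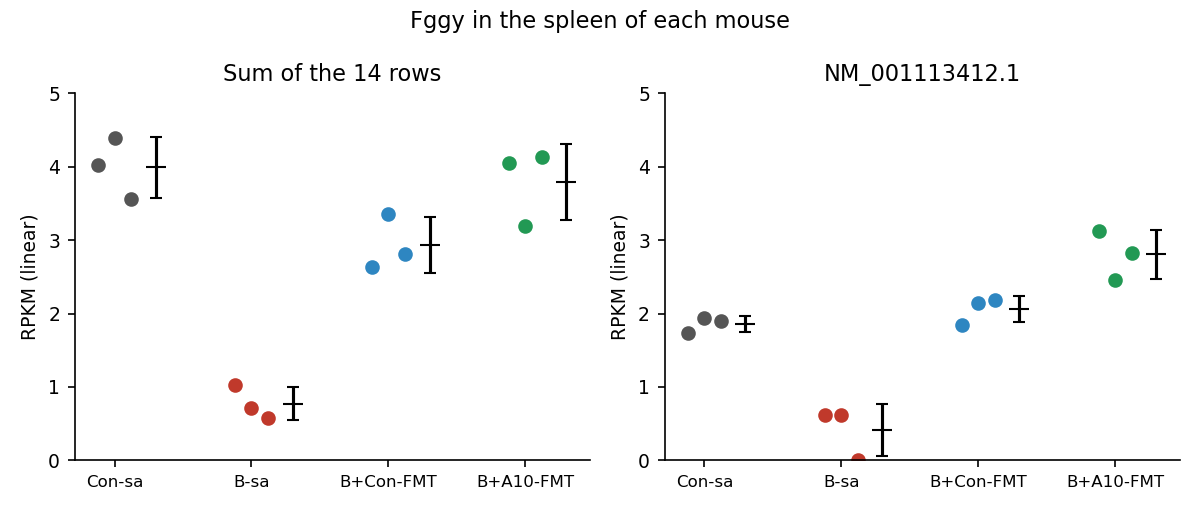
Fggy in RPKM (linear axis) in each of the 12 spleens, as the sum of the 14 rows (left) and as NM_001113412.1 (right). Coloured points are mice and black bars are the mean ± SD of 3 mice. On the left the B-sa mice sit between 0.58 and 1.02 and all other mice between 2.63 and 4.39.

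The mean of Con-sa was 5.19 times that of B-sa, and the means of B+Con-FMT and B+A10-FMT were 3.81 and 4.93 times that of B-sa. Even the lowest mouse of those groups was 3.49, 2.58 and 3.13 times the highest B-sa mouse. On log2(RPKM + 1), the scale of the fit, B-sa minus Con-sa was -1.50 (SE 0.118). B+Con-FMT minus B-sa was 1.16 and B+A10-FMT minus B-sa was 1.44 on the same scale. These sizes come from the values that chose the gene and take no account of that choice. The pseudocount of 1 understates the fold of a gene at this level, and all 3 differences rest on the same B-sa mice. In bulk RNA, fewer cells that express Fggy and less Fggy RNA per cell cannot be told apart.

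Beta-globin genes of the erythroid marker list were low in the same B-sa mice. Hbb-bs and Hbb-bt are the adult beta-globin genes of 1 mouse haplotype, and Hbb-b1 and Hbb-b2, which are close to them in sequence, are those of another, so that reads can be hard to assign between them. Hbb-bs was at 25330, 45902 and 20290 RPKM in Con-sa and at 30.5, 17.3 and 9.20 RPKM in B-sa. The B+Con-FMT mice had 36.4, 20930 and 4025 RPKM, and the B+A10-FMT mice 8916, 13234 and 10623 RPKM. In Hbb-bs, B-sa thus lay below all other mice, with B+Con-FMT 1 close to it. In Hbb-bt, B+Con-FMT 1 (14.7 RPKM) lay within the B-sa mice (12.1, 16.4 and 11.7 RPKM). Fggy was at 2.63 RPKM in B+Con-FMT 1. Hbb-b1 went the other way, at 35832, 15053 and 37780 RPKM in Con-sa and 71434, 87642 and 79130 RPKM in B-sa. Of the 5 erythroid markers, 2 (Hbb-bs and Hbb-bt) were lower and 1 (Hba-a1) higher in B-sa than with Con-sa, and the same 2 were higher and the same 1 lower in B+A10-FMT than with B-sa (limma). Of all genes tested, 9.78% were lower and 4.73% higher in the former comparison, and 4% higher and 1.27% lower in the latter. The sum of the 5 markers, carried by Hba-a1, was 128462 to 163602 RPKM in Con-sa against 120890 to 145157 with B-sa, 107520 to 155003 with B+Con-FMT and 106749 to 121597 with B+A10-FMT. ICR mice are outbred, genotypes were not analysed here, and the part of the beta-globin haplotype in the Fggy result was not tested.

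The comparisons that leave out B-sa are not those that chose the gene. They do use the Con-sa and B+A10-FMT values, which had to lie far from B-sa for the choice. They are therefore not independent of it, and the differences of these groups from B+Con-FMT take no account of the choice. Testing was by limma over all 12671 genes that reached 1 RPKM in at least 3 mice. Fggy passed this filter through the groups where it is high. For B+A10-FMT versus B+Con-FMT the ratio of means was 1.29 and the log2 difference 0.28 (SE 0.118, 95% interval 0.028 to 0.539). It did not pass the test (limma, Benjamini-Hochberg adjusted p = 0.134, exact two-sided permutation p = 0.2). The intervals given here are for Fggy alone, without adjustment for the number of genes, and the unadjusted limma p of this comparison was 0.0321. Between B+Con-FMT and Con-sa, the difference was -0.35 (95% interval -0.601 to -0.09), with no overlap between the mice. The limma adjusted p was 0.0834 (unadjusted limma p = 0.0119) and the exact permutation p was 0.1, the smallest that 3 mice against 3 can give. Between B+A10-FMT and Con-sa it was -0.06 (95% interval -0.317 to 0.194, limma adjusted p = 0.863, exact permutation p = 0.7). From high to low, the order of the means was Con-sa, B+A10-FMT, B+Con-FMT and B-sa, and neither of the first 2 steps in this order passed the test, with overlapping mice in both. A difference that missed the threshold is not shown to be absent, as the intervals give.

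**Figure D3:**
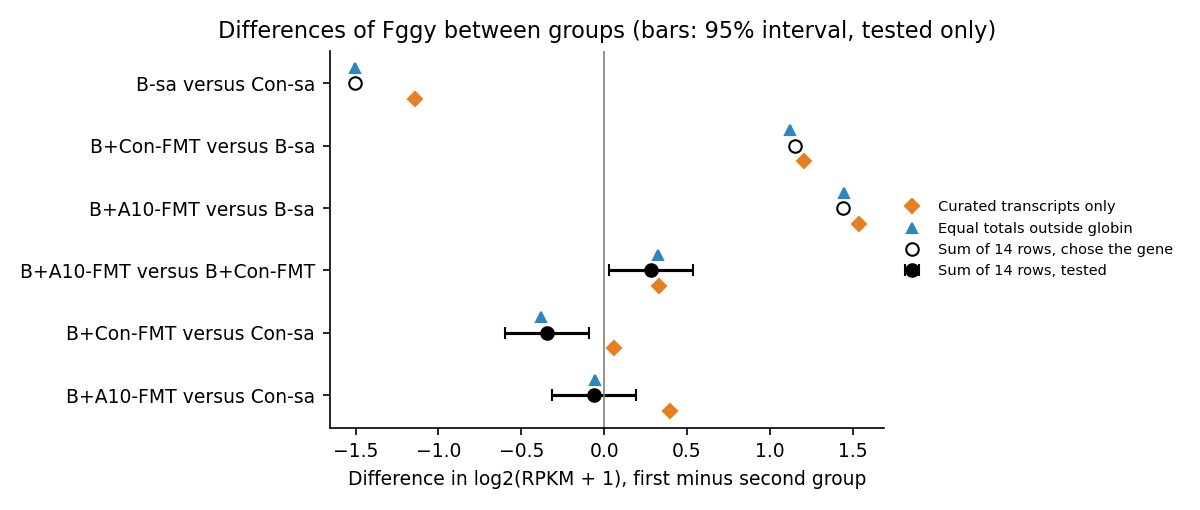
Difference of Fggy in log2(RPKM + 1), first minus second group, for the 6 comparisons. Circles are the sum of the 14 rows (open and without an interval for the comparisons that chose the gene, filled with the 95% interval for those tested), diamonds are the curated transcripts only and triangles are the values after equal totals outside the globin genes. The diamonds of the last 2 comparisons lie above 0 and the circles below 0.

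Among the 12671 genes tested, 391 (3.09%) had all 3 B-sa mice below the other 9 mice, and 173 had them above. Fggy had the widest such gap, 0.846 on the log2(RPKM + 1) scale between the highest B-sa mouse and the lowest other mouse. LOC100041903 came next (0.596), followed by Csprs (0.437) and Prf1, which encodes perforin of cytotoxic lymphocytes (0.34). This place follows from the way the gene was chosen. Its mean over the 12 mice, 2.87 RPKM, was low beside the median gene (12.4 RPKM), with 15.6% of genes lower. Its residual SD within groups, 0.152 on the log2 scale, was above the median of 0.099, and 80.3% of genes had a smaller one.

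The genes just outside the choice were also low in B-sa or changed between B-sa and B+A10-FMT. In B-sa minus Con-sa, the log2 difference was -1.45 for Ncr1, -1.11 for Klre1 and -1.03 for Klrb1b, all receptors of natural killer cells. Ncr1 was at 12.9 RPKM in Con-sa and 4.07 in B-sa on average, but at 2.98 in B+Con-FMT mice and 5.09 in B+A10-FMT mice, so that its FMT groups stayed near B-sa. In B+A10-FMT minus B-sa the values were 1.11 for Mndal, an interferon-inducible gene, and 1.0 for LOC100041903. Another gene, for which the reference table held no symbol, went the other way (-1.40), from 10.4 RPKM on average in B-sa to 3.21 RPKM in B+A10-FMT.

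The transcript rows behind the sum did not vary in parallel. In Con-sa, NM_001113412.1 was at 1.74, 1.94 and 1.90 RPKM (1.86 ± 0.106, SD, n = 3). In B-sa it was at 0.62 and 0.61 RPKM and listed at 0 in mouse 3. The B+Con-FMT mice had 1.85, 2.15 and 2.18 RPKM (2.06 ± 0.182, SD, n = 3), and the B+A10-FMT mice 3.13, 2.46 and 2.83 RPKM (2.81 ± 0.336, SD, n = 3). In this transcript each B+A10-FMT mouse exceeded each mouse of the other groups. Its mean in B+A10-FMT was 1.51 times that of Con-sa and 1.36 times that of B+Con-FMT, each with an exact permutation p of 0.1, the smallest possible. B+Con-FMT and Con-sa overlapped (exact permutation p = 0.3). Fitted in place of the sum, a setting chosen after the data were seen, this transcript gave a log2 difference of 0.41 in B+A10-FMT versus Con-sa (limma adjusted p = 0.612) and 0.31 between the FMT groups (limma adjusted p = 0.451).

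The shorter-spanning curated transcript, NM_029347.2, was lower than NM_001113412.1 in 11 of 12 mice, the exception being B-sa 3. It was at 0.36, 0.41 and 0.22 RPKM in Con-sa, and at 0.06 and 0.11 RPKM in mice 2 and 3 of B-sa, with mouse 1 listed at 0. The B+Con-FMT mice had 0.25, 0.36 and 0.21 RPKM and the B+A10-FMT mice 0.23, 0.55 and 0.39 RPKM. The groups other than B-sa overlapped, and each of their mice exceeded each B-sa mouse. By the depth estimate given below, this row rests on only about 0, 2 and 3 reads in the B-sa mice and 6 to 15 in the others. Its contrast with B-sa is also part of the values that chose the gene.

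The 12 predicted transcripts together were at 1.93, 2.04 and 1.44 RPKM in Con-sa (1.80 ± 0.319, SD, n = 3). They were at 0.40, 0.04 and 0.47 RPKM in B-sa. With B+Con-FMT they reached 0.53, 0.85 and 0.42 RPKM, and with B+A10-FMT 0.69, 0.18 and 0.92 RPKM. All Con-sa mice therefore lay above all other mice in these rows. The exact permutation p was 0.1 against B+Con-FMT and against B+A10-FMT. Single predicted rows were irregular. XM_006503476.1 was above 0 in 1 mouse (Con-sa 1, 0.89 RPKM), and XM_011240637.2 was above 0 in the 3 Con-sa mice (0.20, 0.52 and 0.21 RPKM) and listed at 0 in all 3 B-sa mice. XM_011240644.1 was at 0.26, 0.41 and 0.45 RPKM in Con-sa and at no more than 0.29 RPKM in any other mouse.

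As a result the make-up of the sum differed. NM_001113412.1 made up 43.2%, 44.2% and 53.4% of the Fggy sum in Con-sa. Its share was 70.3%, 64.0% and 77.6% in B+Con-FMT mice and 77.3%, 77.1% and 68.4% in B+A10-FMT mice. Both FMT groups lay above Con-sa without overlap (exact permutation p = 0.1 each), and they did not differ from each other beyond their spread (exact permutation p = 0.7). In B-sa, where the sum was low, the share was 60.8%, 85.9% and 0%. With the curated transcripts only, B+Con-FMT minus Con-sa was 0.06 (limma adjusted p = 0.841) and B+A10-FMT minus Con-sa was 0.40 (limma adjusted p = 0.369), both opposite in sign to the full sum. How reads in the shared exons were divided among the rows is not given in the sources used here, and its part in these shares was not tested.

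**Figure D4:**
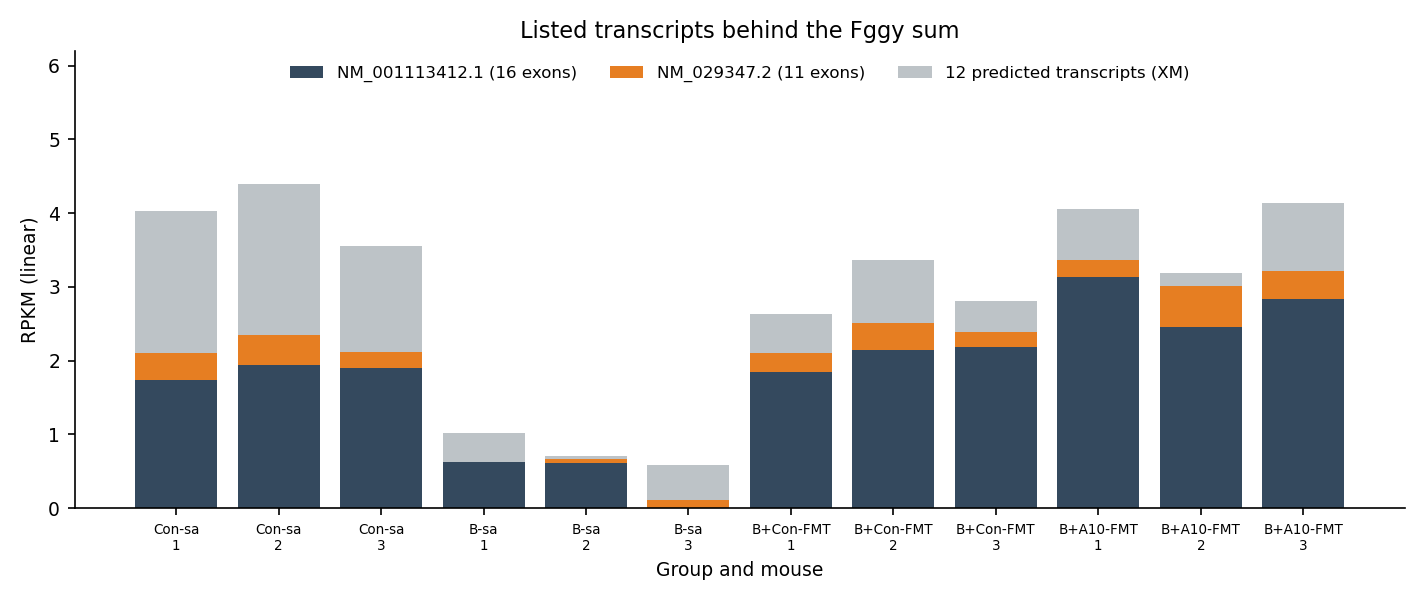
RPKM (linear axis) of the rows behind the Fggy sum in each mouse, stacked as NM_001113412.1 (dark blue), NM_029347.2 (orange) and the 12 predicted transcripts (grey). The grey part is 1.44 to 2.04 in Con-sa and at most 0.92 in every other mouse.

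The low level sets the precision. The steps between low RPKM values put the depth at 14600000 to 15400000 reads per mouse, from which NM_001113412.1 is estimated to rest on about 44 to 50 reads in a Con-sa mouse and 66 to 83 in a B+A10-FMT mouse. For B-sa the same estimate was 16, 16 and 0 reads, and for B+Con-FMT 48 to 57 reads. Globin genes took 23.3% to 32.4% of the summed RPKM of a mouse.

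Of the other kinases of the family, 4 of the 6 on the list were in the tables and tested. Gk, which phosphorylates glycerol, rose in B-sa versus Con-sa. It was at 3.63, 3.85 and 3.6 RPKM in Con-sa and at 5.38, 4.84 and 4.61 RPKM in B-sa, without overlap (log2 difference 0.34, SE 0.073, limma adjusted p = 0.0124). Its FMT groups were at 3.91 and 4.12 RPKM on average. The Gk call held with each mouse left out in turn, but was lost with the curated transcripts only (limma adjusted p = 0.82). Gk5 fell in B+Con-FMT versus Con-sa (-0.30, limma adjusted p = 0.0469), a call that held in 2 of the 12 fits that left out 1 mouse, those without B-sa 1 and without B-sa 2 (-0.35 to -0.27 over the 12), and in 3 of the 6 other alternatives that could be fitted. Xylb, which phosphorylates xylulose, was at 1.22 RPKM on average in Con-sa, 1.04 with B-sa, 1.25 with B+Con-FMT and 1.01 with B+A10-FMT, and was not called in any comparison. Shpk, the kinase of sedoheptulose, was at 2.17, 2.37, 2.31 and 2.75 RPKM in that order and was not called either. The family thus had 1 member higher of 4 in B-sa versus Con-sa, where 4.73% of all genes tested were higher and 9.78% lower. It had 1 lower of 4 in B+Con-FMT versus Con-sa, where 2.3% were higher and 6.57% lower.

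The pentose phosphate list held 18 genes, of which 17 were in the tables and 15 were tested. In B-sa versus Con-sa, 2 of 15 were higher and 0 lower, beside 4.73% and 9.78% of all genes, and the median log2 difference was 0.08 against -0.04 over all genes tested. These were the enzymes of the non-oxidative branch transaldolase (Taldo1) and transketolase (Tkt). Taldo1 was at 217, 216 and 215 RPKM in Con-sa and 247, 270 and 252 RPKM in B-sa (log2 difference 0.25, limma adjusted p = 0.00783), and the call held with each mouse left out. Tkt was at 105, 102 and 105 RPKM in Con-sa and 116, 123 and 115 RPKM in B-sa (0.18, limma adjusted p = 0.0455). Its call held in 3 of the 12 fits with 1 mouse left out, those without B+Con-FMT 1, B+Con-FMT 3 and B+A10-FMT 3 (0.15 to 0.20 over the 12), and in 3 of the 8 other alternatives. Taldo1 also exceeded its Con-sa level in B+Con-FMT (0.19, limma adjusted p = 0.0272), a call that was lost without any 1 of these 6 mice (0.18 to 0.21) and with equal totals outside the globin genes.

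H6pd, the hexose-6-phosphate dehydrogenase of the endoplasmic reticulum, was at 14.4, 14.1 and 14.6 RPKM in Con-sa and at 9.53, 11.6 and 11.8 RPKM in B+Con-FMT. With B+A10-FMT it was at 14.3, 15.4 and 13.7 RPKM. It was lower in B+Con-FMT than in Con-sa (-0.37, limma adjusted p = 0.0184) and higher in B+A10-FMT by comparison with B+Con-FMT (0.37, limma adjusted p = 0.0161). These 2 comparisons share the B+Con-FMT mice. The first call was lost without Con-sa 1, Con-sa 2 or B+Con-FMT 1 (-0.42 to -0.27 over the 12 fits), and the second without B+Con-FMT 1 or B+A10-FMT 2 (0.28 to 0.42). Pgm1, a phosphoglucomutase, was at 7.51, 6.52 and 7.80 RPKM in B+Con-FMT mice and 8.55, 11.46 and 10.04 RPKM in B+A10-FMT mice (0.41, limma adjusted p = 0.02). Its call was lost without B+Con-FMT 1, B+Con-FMT 2 or B+A10-FMT 2 (0.31 to 0.51), and also with only the 2 groups compared. Rbks, the ribokinase, which phosphorylates D-ribose, was at 8.95, 10.7, 9.36 and 9.63 RPKM on average in the 4 groups in the order above and was not called.

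For B+A10-FMT versus B+Con-FMT, 2 of the 15 pentose phosphate genes were higher and 0 lower, against 7.58% of all genes higher and 2.78% lower. Between B+Con-FMT and Con-sa, 1 of 15 was higher and 1 lower, beside 2.3% and 6.57% of all genes. For B+Con-FMT versus B-sa, where 0.623% of all genes were higher and 0.221% lower, and for B+A10-FMT versus B-sa, where 4% were higher and 1.27% lower, 0 genes of the 4 lists were called.

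The uronate and polyol list, whose enzymes convert glucuronate, xylulose and related sugars, held 15 genes, all tested. In B-sa versus Con-sa, 2 of 15 (Dcxr and Miox) were lower and 0 higher, beside 9.78% of all genes lower and 4.73% higher. Dcxr, the L-xylulose reductase, was at 13.2, 11.8 and 12.7 RPKM in Con-sa and 11.2, 10.6 and 8.60 RPKM in B-sa (-0.29, limma adjusted p = 0.0494). That call held in 2 of the 12 fits with 1 mouse left out, those without B-sa 1 and without B+A10-FMT 1 (-0.36 to -0.19), and in 4 of the 8 other alternatives. Miox, the myo-inositol oxygenase of kidney tubules, was at 1.90, 1.33 and 1.42 RPKM in Con-sa and 0.15, 0.22 and 0.44 RPKM in B-sa (-1.01, limma adjusted p = 0.00486). It reached 1 RPKM only in the Con-sa mice and in B+Con-FMT 3, so that it entered the test through the mice in which it is high, and its calls are no support for the list. It was lower in B+A10-FMT spleens than in those of B+Con-FMT (-0.77, limma adjusted p = 0.0132) and than in Con-sa (-1.24, limma adjusted p = 0.0107), a comparison in which 0.118% of all genes were higher and 0.292% lower. These last 2 calls were lost without B+A10-FMT 2 (-0.94 to -0.62 over the 12 fits) and without B+A10-FMT 1 (-1.31 to -1.15), respectively, and the last also with the curated transcripts only. The kidney markers Kap, Umod, Slc34a1 and Lrp2 summed to 75.5 to 117 RPKM in Con-sa and 7.78 to 15.1 RPKM in B-sa. The sum was 17.4 to 62.1 RPKM in B+Con-FMT spleens and 0.83 to 3.31 RPKM in those of B+A10-FMT. Their part in the Miox result was not tested.

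**Figure D5:**
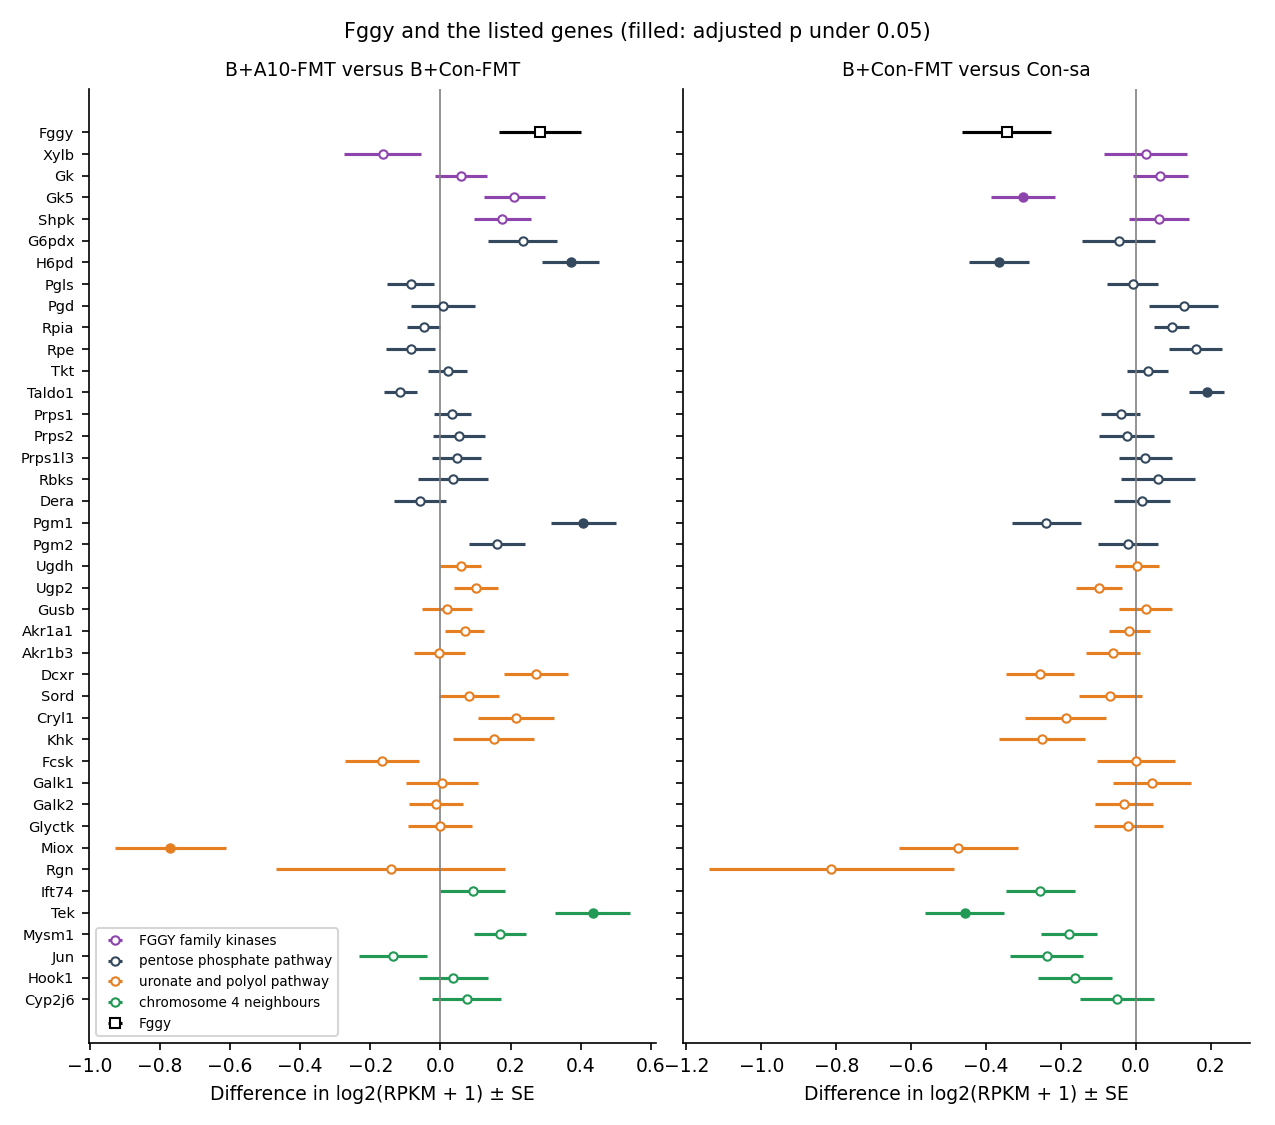
Difference in log2(RPKM + 1) ± SE of Fggy (black square) and of the 40 tested genes of the 4 lists (circles, coloured by list) for B+A10-FMT versus B+Con-FMT (left) and B+Con-FMT versus Con-sa (right). Filled circles have a limma adjusted p under 0.05. H6pd and Tek are filled on both sides, above 0 on the left and below 0 on the right.

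Of the 10 measured genes nearest to Fggy on chromosome 4, 5 on each side, 6 were tested. Hook1, which links cargo to microtubules and lies next to Fggy at chr4:95967181-96025412, was at 4.77, 4.83 and 4.51 RPKM in Con-sa and 4.08, 2.90 and 3.65 RPKM in B-sa. It fell from Con-sa to B-sa (-0.34, limma adjusted p = 0.0393), a call that held in 5 of the 12 fits with 1 mouse left out (without B-sa 1, B+Con-FMT 1, B+Con-FMT 3, B+A10-FMT 2 or B+A10-FMT 3, with -0.42 to -0.23 over the 12) and in 4 of the 8 other alternatives. Jun, the nearest on the other side, was at 7.55, 6.10, 6.30 and 5.61 RPKM on average in the 4 groups and was not called. Tek, the angiopoietin receptor of endothelium, was lower in B+Con-FMT than in Con-sa (-0.46, limma adjusted p = 0.0229) and rose in B+A10-FMT compared with B+Con-FMT (0.43, limma adjusted p = 0.0261). The first Tek call was lost without Con-sa 1, Con-sa 3, B+Con-FMT 1 or B+Con-FMT 2 (-0.54 to -0.38), and the second without B+Con-FMT 1, B+Con-FMT 2, B+A10-FMT 1 or B+A10-FMT 2 (0.35 to 0.52). Both were also lost with the curated transcripts only (limma adjusted p = 0.24 and 0.34). The 4 endothelial markers moved with it, 4 of 4 being lower (6.57% of all genes) and then higher (7.58%) in those comparisons, and their part was not tested. Of the 6 neighbours, 1 was lower in B-sa versus Con-sa (9.78% of all genes) and 1 in B+Con-FMT versus Con-sa (6.57%). Between the FMT groups 1 was higher in B+A10-FMT (7.58%). In B-sa versus Con-sa, the median log2 difference of the 6 neighbours was -0.20, against -0.04 over all genes tested.

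Over the 12 mice, the genes whose profile was most like that of Fggy on log2(RPKM + 1) were Phf2 (Pearson r = 0.961), Lsm14b (0.936), Tmem184b (0.933), Snrk (0.921) and Stk10 (0.921). Those most opposite were Etfa (-0.939), Cdc123 (-0.92) and Acp1 (-0.915). In all, 28 of 12670 genes reached an r of at least 0.9 and 4 an r of -0.9 or less. The B-sa mice stand apart in Fggy and weigh on these values. Over the 9 other mice, r was 0.801 for Phf2, 0.887 for Lsm14b, 0.599 for Tmem184b, 0.801 for Snrk and 0.722 for Stk10, and it was -0.431 for Etfa, -0.766 for Cdc123 and -0.739 for Acp1. These values still carry differences between group means. For deviations from the group means over the 12 mice, r was 0.598 for Phf2, 0.386 for Lsm14b, 0.482 for Tmem184b, -0.037 for Snrk and 0.439 for Stk10. It was -0.585 for Etfa, -0.464 for Cdc123 and -0.732 for Acp1. These are descriptions of the highest and lowest of many genes, without a test.
The likest genes were less spread between groups than Fggy. Phf2, a histone demethylase, was at 19.9 ± 0.237 RPKM in Con-sa and 17.7 ± 0.517 RPKM in B-sa (SD, n = 3). With B+Con-FMT it was at 19.2 ± 0.373 RPKM and with B+A10-FMT at 19.95 ± 0.102 RPKM (SD, n = 3). Stk10, a kinase of lymphocytes, was at 41.7 ± 0.589, 31.7 ± 2.22, 36.5 ± 0.65 and 38.9 ± 1.32 RPKM in the same order of groups (SD, n = 3).

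The tables held the markers of spleen cells, with 4 of 4 genes at a mean of at least 1 RPKM for B cells, T cells and red pulp macrophages. The B cell markers summed to 1394 to 1533 RPKM in Con-sa against 1057 to 1279 with B-sa, 1228 to 1304 with B+Con-FMT and 1251 to 1300 with B+A10-FMT, and 4 of 4 fell from Con-sa to B-sa (limma), as did 9.78% of all genes. In B+Con-FMT 1 of 4 (Cd22) was lower than in Con-sa (limma; 6.57% of all genes). T cell markers summed to 121 to 146 RPKM in Con-sa against 111 to 144 with B-sa, 145 to 178 with B+Con-FMT and 128 to 146 with B+A10-FMT. Of these 4, Cd3e was higher in B+Con-FMT than in either saline group (limma; 0.623% of all genes against B-sa and 2.3% against Con-sa), and 0 were called between B-sa and Con-sa. Neutrophil markers summed to 1779 to 1860 RPKM in Con-sa against 3189 to 5158 with B-sa, 2029 to 2963 with B+Con-FMT and 1765 to 4415 with B+A10-FMT, with 1 of 4 called higher in B-sa against Con-sa, as were 4.73% of all genes. Endothelial markers summed to 85.1 to 85.5 RPKM in Con-sa against 68.3 to 73.9 with B-sa, 65.5 to 73.2 with B+Con-FMT and 85.6 to 89.7 with B+A10-FMT. From Con-sa to B-sa 2 of 4 fell (Pecam1 and Stab2), and from B-sa to B+A10-FMT 3 of 4 rose (Cdh5, Kdr and Stab2), beside the shares of 9.78% and 4% of all genes (limma).
Red pulp macrophage markers summed to 490 to 506 RPKM in Con-sa against 399 to 517 with B-sa, 378 to 464 with B+Con-FMT and 582 to 678 with B+A10-FMT. In B+A10-FMT, 1 of 4 (Spic) was higher than in B-sa (4% of all genes) and 3 of 4 were higher than in B+Con-FMT (7.58% of all genes, limma). Pancreatic acinar markers summed to 1176 to 6466 RPKM in Con-sa against 420 to 2966 with B-sa, 7181 to 11655 with B+Con-FMT and 393 to 8263 with B+A10-FMT. Adipocyte markers summed to 82.2 to 124 RPKM in Con-sa against 83.2 to 181 with B-sa, 24.4 to 66.1 with B+Con-FMT and 40.9 to 53.1 with B+A10-FMT. Liver markers summed to 18.3 to 174 RPKM in Con-sa against 10.1 to 56.4 with B-sa, 12.5 to 41.8 with B+Con-FMT and 6.98 to 11.9 with B+A10-FMT. In the acinar, adipocyte and liver lists 0 genes were called in the 6 comparisons. The part of these cell types in the Fggy result was not tested.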

How the data were processed

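Spleen RNA of 12 mice was measured, 3 per group, with groups taken from the labels. The authors deposited RPKM for 60654 RefSeq transcripts in 1 table per mouse. The authors' text names SOAPaligner, whereas the labels' processing notes name HISAT, Bowtie2 and mm10 without saying which step each served. Read counts were not used here. RPKM of all rows of a gene were summed (18221 genes), and the 12671 genes that reached 1 RPKM in 3 or more mice entered 1 limma fit of log2(RPKM + 1) over all 12 mice (limma 3.58.1, R 4.3.3, trended and robust), with Benjamini-Hochberg adjustment. Calls needed an adjusted p below 0.05. In all, 6 comparisons were made, which share groups, and Fggy was tested in 3. Exact permutation tests were two-sided. Nothing says that the mice came from separate cages or litters, so that p-values cover the spread between these mice.

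The gene, the 4 lists and the cell type markers were chosen with earlier results of these data known. Genes named are Fggy with its rows, members of the 4 lists, the 5 genes with the highest and 3 with the lowest Pearson r with Fggy, and the 3 genes nearest to it in each of the contrasts that chose it. The genes with the next widest gaps, Hbb-b1 and the called markers were named after their values were seen, as were the tests of single transcript groups. The list genes Gk2, Gykl1 and G6pd2 were not analysed here. Prps1 and Prps1l3 are close copies that may share reads. Depth was estimated from the steps between low RPKM values, assuming whole reads, and gives no counting interval. The limma script was tested on simulated data.

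The sample titles number the mice 1 to 3 in each group, and no mouse recurs. Deviations from the group means of same-numbered mice correlated from -0.373 to 0.303 (18 pairs), and those of other mice from different groups from -0.432 to 0.512 (36 pairs). With 3 mice per group these overlapping ranges cannot show whether the numbers pair the mice, and the main fit used no pairing. Promoter sequences are RefSeq's (GRCm38.p6). Alternatives were a pseudocount of 0.1, other filters, the replicate number as a block, 2-group fits, each mouse left out, median-of-ratios scaling, equal totals outside globin genes, and curated transcripts only. Summaries were made in Python 3.11.15 (pandas 2.3.3, NumPy 2.4.6), permutation tests with SciPy 1.17.1 and plots with matplotlib 3.10.9.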

Additional observations from a re-analysis of the deposited data

How the results depend on the processing

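The direction of Fggy in the 3 comparisons with B-sa was kept in all 20 alternatives. Some of these cannot change a difference of group means, namely no filter, the replicate block, the 2-group fits and leaving out a mouse of a group not compared. These comparisons also rest on the values that chose the gene, so that the count is no support. A pseudocount of 0.1 gave -2.26 for B-sa versus Con-sa, 1.83 for B+Con-FMT versus B-sa and 2.18 for B+A10-FMT versus B-sa. For B-sa versus Con-sa, the curated transcripts only gave -1.14 and NM_001113412.1 alone, chosen after seeing the data, gave -1.05. B+Con-FMT versus Con-sa passed the threshold with equal totals outside the globin genes (-0.38, limma adjusted p = 0.0473, range over the alternatives 0.0473 to 0.852), and reversed with the curated transcripts (0.062) and with NM_001113412.1 alone (0.10). B+A10-FMT versus Con-sa reversed with the curated transcripts (0.40), with NM_001113412.1 alone (0.41) and without B+A10-FMT 2 (0.032). With 1 mouse left out, the difference was -1.60 to -1.42 for B-sa versus Con-sa, 1.08 to 1.25 for B+Con-FMT versus B-sa and 1.36 to 1.54 for B+A10-FMT versus B-sa. Between the FMT groups it was 0.23 to 0.38, and it was -0.42 to -0.29 for B+Con-FMT versus Con-sa and -0.13 to 0.032 for B+A10-FMT versus Con-sa. A filter of 1 RPKM in every mouse removed Fggy and gave no value.

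Adding the replicate number as a block cannot change the Fggy differences, since each group holds mice 1 to 3, and only their SE and p can move. With the block the limma adjusted p was 0.17 between the FMT groups, 0.11 for B+Con-FMT versus Con-sa and 0.88 for B+A10-FMT versus Con-sa. Over the 6 comparisons, 15 calls fell on members of the 4 lists, 12 of which the block kept and 3 of which held with each mouse left out. Calls of Miox, which are no support for its list, are among the 15, the 12 and the 3. The FGGY family had 2 calls, and 1 under the block, the filter in every mouse, the 2-group fits and median-of-ratios scaling, but 3 with equal totals outside globin (1 to 2 with 1 mouse left out). The uronate and polyol list had 4, which became 1 with the filter in every mouse and 7 with equal totals outside globin (2 to 6 with 1 mouse left out). The pentose phosphate list had 6 (2 to 7 with 1 mouse left out) and the neighbours 3 (1 to 3). The shares of all genes called are given above for the main fit but not for the alternatives. These counts are therefore no result about the lists. With the curated transcripts only, the family and the neighbours had 0 calls each. The cause was not tested. The block lost Gk5 (limma adjusted p = 0.076), Tkt (0.073) and Dcxr (0.075). Tkt was also lost with no filter, the 2-group fit, equal totals outside globin and curated transcripts only, and Dcxr and Hook1 with no filter, the 2-group fit and median-of-ratios scaling. NM_001113412.1 rested on an estimated 16, 16 and 0 reads in the B-sa mice, which limits the precision there.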
